A study of Mus musculus with 30 samples.

Results

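The 46 genes described here encode proteins of mitosis and of the kinetochore. They were taken by symbol from a list of such genes, out of the 16025 genes of a gene-level count table of mouse C2C12 myotubes. The list was chosen with earlier results of these data known. Counts of its members set beside shares of all genes are therefore descriptive. All 46 were found, and all 46 were among the 12184 genes kept after a filter on low counts. C2C12 is a mouse skeletal muscle myoblast line that fuses into multinucleated myotubes when serum is lowered, and all libraries came from this wild-type line after differentiation. The series asked how preparations of Korean Red Ginseng change the response of such myotubes to D-galactose, a sugar used to bring on features of ageing in cultured cells.

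There were 10 groups of 3 libraries. Of these, 4 groups received a preparation for 12 h and then D-galactose at 20 mg/mL for 24 h, namely the water extract RGW plus D-galactose, the saponin fraction SFr plus D-galactose, the non-saponin fraction NSFr plus D-galactose, and ginsenoside Rb2 plus D-galactose. RGW, SFr and NSFr were used at 100 µg/mL and Rb2, a single saponin of ginseng, at 20 µM. A further group received D-galactose after vehicle. RGW, SFr, NSFr and Rb2 were also given alone, for 12 h according to the labels, and the last group was the vehicle control. Whether the cultures given vehicle or a preparation alone were kept as long as those given D-galactose is not given in the sources used here. A difference in culture time therefore cannot be told apart from D-galactose where these groups are compared. The labels give no time for the vehicle control, so the same limit holds where a preparation alone is compared with it. All cultures share the cell line and the differentiation protocol.

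A cell enters mitosis when cyclin A and cyclin B activate the kinase Cdk1, and the transcription factor Foxm1 together with the MuvB complex raises the genes that follow. Kinetochores are protein assemblies on centromeres that capture spindle microtubules, and the spindle checkpoint holds the anaphase-promoting complex in check until every chromosome is attached. Myotube nuclei have left the cell cycle, and differentiated C2C12 cultures usually also hold mononucleated cells, some of which can still divide.

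Library totals ran from 22209229 to 30218353 estimated counts, and the 46 genes held between 24 and 1759 counts each per library. Levels of the 46 genes are CPM, the count of a gene set against the summed counts of its library and scaled by TMM factors that correct for composition. Summed levels of marker lists and of mitochondrially encoded RNA are CPM or percent of the library total, without these factors. A gene was called changed at a Benjamini-Hochberg adjusted p under 0.05 over all 12184 genes in edgeR's quasi-likelihood test, fitted once to all 30 libraries, and every adjusted p below comes from that test. Errors after ± are standard errors for log2 fold changes and standard deviations for levels (n = 3 per group). The series' design text calls the libraries biological replicates without saying that they came from separate cultures. The p-values set each difference against the spread between libraries, estimated over all 10 groups. Whether that is the spread between separate cultures is not known. The share of all tested genes called is given beside the first count in each comparison. Counts at an unadjusted p of 0.05 have no such share and cannot be set against the share called. Of the 46 genes, 15 had values that were not whole (off by more than 0.005 in at least 1 library), as RSEM gives where it divides reads between genes. Ccna2, Ccnb1, Plk1 and Ube2c were among these 15, whose levels are uncertain to that extent.

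The summed level of the 46 genes was lowest in SFr plus D-galactose. It was 224.4 ± 1.27 CPM in SFr plus D-galactose, 393.9 ± 13 CPM in RGW plus D-galactose, 501.1 ± 24.4 CPM in Rb2 plus D-galactose, 509.4 ± 32.4 CPM in NSFr plus D-galactose and 390.8 ± 21.8 CPM in D-galactose alone. Without D-galactose it was 328.1 ± 13.4 CPM in SFr, 595.2 ± 49.4 CPM in RGW, 768.0 ± 40.3 CPM in NSFr, 793.9 ± 24.9 CPM in Rb2 and 713.7 ± 2.82 CPM in the vehicle control. RGW plus D-galactose (382.2 to 407.9 CPM) and D-galactose alone (367.3 to 410.5 CPM) overlapped, as did NSFr plus D-galactose with Rb2 plus D-galactose, and NSFr with Rb2. SFr alone (315.9 to 342.4 CPM) lay below every library of D-galactose alone. RGW library 3, at 538.2 CPM, stood apart from RGW libraries 1 and 2, at 622.3 and 625.2 CPM. In bulk RNA, fewer dividing cells and less of these transcripts per cell cannot be told apart.

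**Figure D1:**
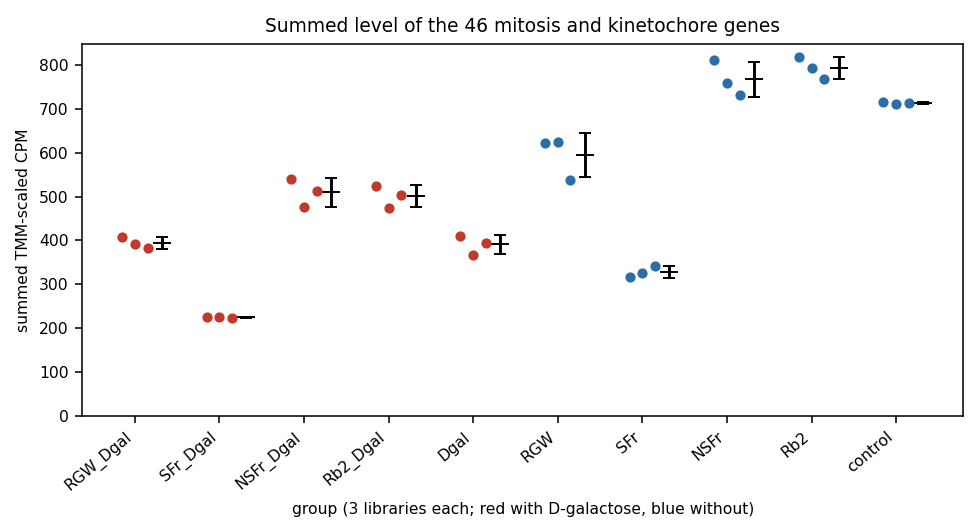
Sum of the scaled CPM of the 46 genes in each library (points; red with D-galactose, blue without), with the mean and SD of each group of 3 (bars). SFr plus D-galactose, at 224.4 CPM on average, is the lowest group and Rb2 alone, at 793.9 CPM, the highest.

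Gene by gene the order was much alike. For 45 of 46 genes the lowest group mean was in SFr plus D-galactose, and the highest was in Rb2 for 31, in NSFr for 14 and in D-galactose alone for 1. The single exception at both ends was Psrc1, which encodes a microtubule-associated protein of the spindle and had its lowest mean in SFr and its highest in D-galactose. The highest group mean was a median of 4.74 times the lowest, from 1.72 times for Racgap1 to 6.71 times for Kif2c. Within groups the coefficient of variation had a median of 7.91% over the 46 genes. The NSFr mean was below the Rb2 mean for 32 of 46 genes. The RGW plus D-galactose mean was below that of D-galactose alone for 21 of 46 genes.

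**Figure D2:**
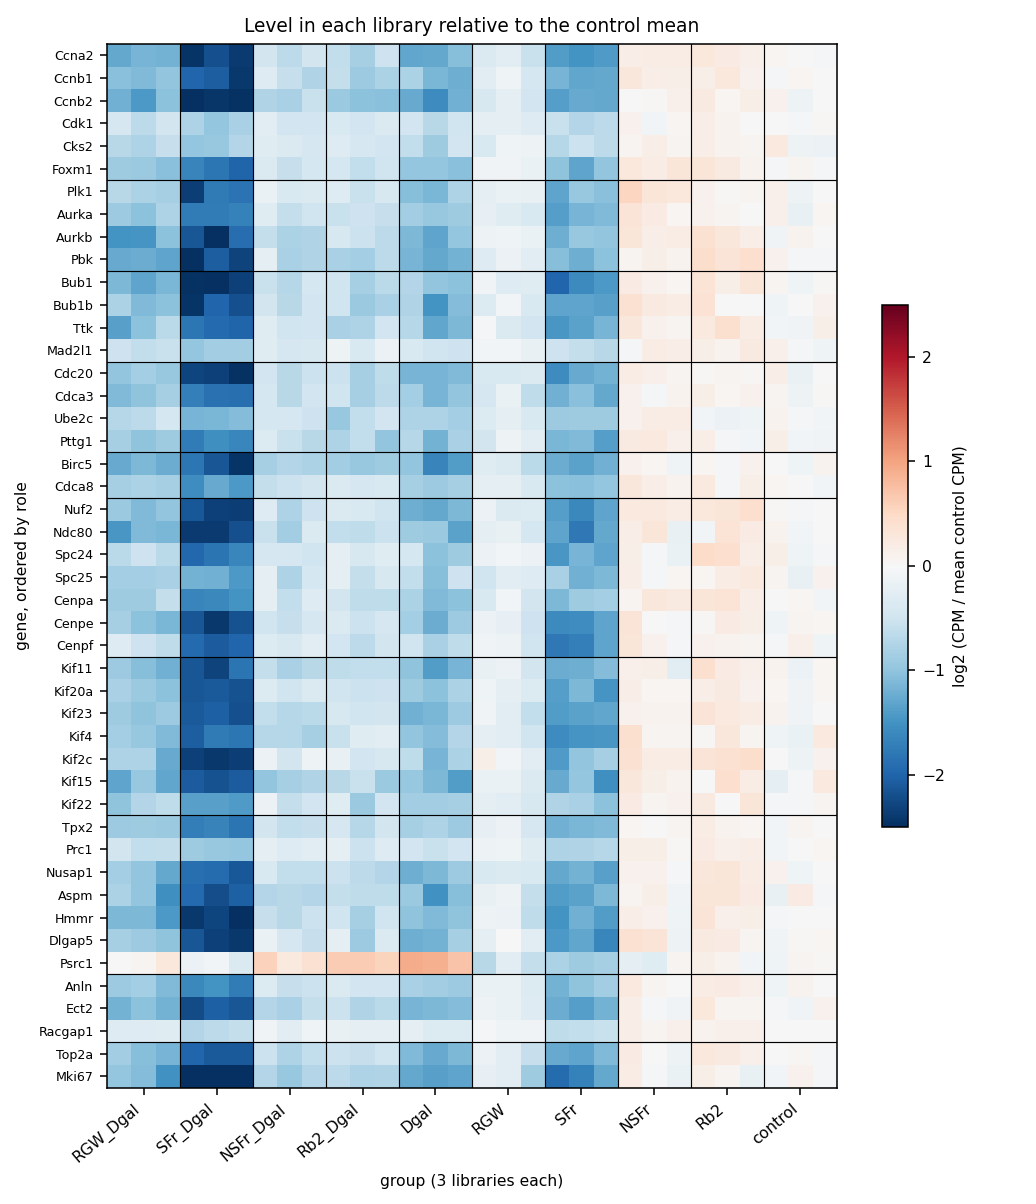
Level of each of the 46 genes (rows, ordered by role with lines between roles) in each of the 30 libraries (columns), as log2 of CPM over the mean CPM of the vehicle control. Blue is lower and red higher than the control mean; the group mean is lowest in SFr plus D-galactose for 45 genes, and Psrc1 is the 1 row that is red in D-galactose.

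Promoter sequence is shown for 5 members because genes of late cell cycle phases commonly share a pair of short elements. These are the cell cycle genes homology region (CHR) and the CCAAT box bound by NF-Y. The CHR was searched only by the letters TTTGAA or the variant TTCGAA. RefSeq windows on GRCm38.p6, from 250 bases before to 50 bases after the annotated start, matched 38 of the 46 genes. On both strands, TTTGAA or TTCGAA stood in 30 of 38 windows (78.9%), against 16.2% of the windows of 9683 tested genes. CCAAT stood in 76.3% of the members' windows and in 43.0% of those of the tested genes, and windows with both elements made up 68.4% and 6.77%. The TATA box letters TATAAA were found in 2.63% of the members' windows and in 9.08% of those of the tested genes. A match is a match of letters only, and a gene counts once however many matches its windows hold. In the windows shown no match overlaps another. The windows shown are those of Ccnb2, which had the largest fall under D-galactose (chr9:70421505-70421804, minus strand), Plk1 (chr7:122159185-122159484, plus strand), Cdc20 (chr4:118437294-118437593, minus strand), Birc5, which also fell but whose window holds none of the letters searched for these elements (chr11:117848987-117849286, plus strand), and Psrc1, which moved the other way (chr3:108383554-108383853, plus strand). Each is written 5′ to 3′ on the gene's own strand, with each match to these elements, on whichever strand, in capitals (ATTGG is CCAAT read on the other strand).
Ccnb2: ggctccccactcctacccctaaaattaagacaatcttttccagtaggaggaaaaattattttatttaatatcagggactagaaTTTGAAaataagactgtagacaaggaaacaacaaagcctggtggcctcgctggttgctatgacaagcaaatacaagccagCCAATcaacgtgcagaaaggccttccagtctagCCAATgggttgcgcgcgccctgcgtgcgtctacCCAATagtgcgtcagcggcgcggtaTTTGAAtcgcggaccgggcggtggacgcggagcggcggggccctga
Plk1: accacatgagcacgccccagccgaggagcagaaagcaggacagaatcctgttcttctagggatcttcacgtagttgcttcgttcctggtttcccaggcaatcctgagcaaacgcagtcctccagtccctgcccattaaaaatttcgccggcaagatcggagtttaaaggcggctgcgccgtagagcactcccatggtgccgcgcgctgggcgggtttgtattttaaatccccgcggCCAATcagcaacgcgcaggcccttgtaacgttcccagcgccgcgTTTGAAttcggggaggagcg
Cdc20: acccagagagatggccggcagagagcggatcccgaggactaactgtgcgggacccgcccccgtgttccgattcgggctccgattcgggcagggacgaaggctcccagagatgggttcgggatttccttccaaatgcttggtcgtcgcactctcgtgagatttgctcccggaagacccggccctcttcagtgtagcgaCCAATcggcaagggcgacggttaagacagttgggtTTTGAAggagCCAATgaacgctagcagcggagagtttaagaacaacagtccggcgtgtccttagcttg
Birc5: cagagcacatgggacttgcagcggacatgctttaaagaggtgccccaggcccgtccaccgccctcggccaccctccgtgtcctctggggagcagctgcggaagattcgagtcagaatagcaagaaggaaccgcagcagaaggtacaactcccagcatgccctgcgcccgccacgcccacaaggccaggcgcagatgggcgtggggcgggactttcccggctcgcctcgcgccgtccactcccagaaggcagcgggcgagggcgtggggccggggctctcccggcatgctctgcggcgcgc
Psrc1: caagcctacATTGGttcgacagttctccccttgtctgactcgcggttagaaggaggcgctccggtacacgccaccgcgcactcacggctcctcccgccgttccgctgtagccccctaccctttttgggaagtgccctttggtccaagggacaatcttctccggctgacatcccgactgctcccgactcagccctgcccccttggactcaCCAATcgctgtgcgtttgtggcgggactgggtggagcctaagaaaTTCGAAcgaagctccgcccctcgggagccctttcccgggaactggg
The window shown for Psrc1, the gene that moved the other way, holds the TTCGAA variant, which reads the same on both strands, and 1 CCAAT on each strand. Another RefSeq window of Psrc1 (chr3:108383588-108383887) holds TTCGAA, and CCAAT on the gene's own strand only. The window of Birc5, which fell with the rest, holds none of these letters.

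D-galactose against the vehicle control addresses what the sugar did without any preparation. Of the 46 genes, 45 fell and 1 rose, against 25.1% of all tested genes called in either direction, 13.1% lower and 11.9% higher. The median log2 fold change was -0.99, against -0.0042 for all tested genes. In all 46 genes the 3 D-galactose libraries lay wholly outside the range of the 3 controls, 45 below and 1 above, while 18.2% of all genes lay wholly below and 17.9% wholly above. The largest falls were in Ccnb2 (-1.33 ± 0.099, adjusted p = 6.43e-12), Birc5 (-1.32 ± 0.12), which encodes survivin, Mki67 (-1.32 ± 0.17), Ccna2 (-1.21 ± 0.078) and Pbk (-1.21 ± 0.12). The smallest were in Racgap1 (-0.30 ± 0.046), Mad2l1 (-0.46 ± 0.077), Prc1 (-0.50 ± 0.064) and Cdk1 (-0.55 ± 0.071).

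Among the cyclins and their partners, all 6 genes fell. Ccna2, the cyclin A2 gene, had 10.2, 10.3 and 12.0 CPM in the 3 D-galactose libraries, against 25.9, 25.04 and 24.5 CPM in the controls. Ccnb1, the cyclin B1 gene, had 7.86, 6.11 and 5.83 CPM under D-galactose and 13.2, 14.0 and 13.6 CPM in the controls, a log2 fold change of -1.04 ± 0.11. Both cyclins were low in every D-galactose library, with no overlap. Cdk1, the kinase that these cyclins activate, had 15.3, 13.2 and 15.01 CPM with D-galactose, against 21.4, 20.7 and 21.8 CPM in controls. Foxm1, which encodes a transcription factor of mitotic genes, had 8.22, 8.21 and 7.82 CPM, against 15.6, 16.9 and 15.8 CPM in controls, and fell by 0.99 on the log2 scale (adjusted p = 6.82e-11). The fold change of Cdk1 (-0.55 ± 0.071) was nearer 0 than those of its cyclins, and its groups did not overlap. Cks2, a small subunit that binds Cdk1, fell as well (-0.66 ± 0.098).

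The 4 mitotic kinases and the 4 spindle checkpoint genes also fell. Plk1, a kinase of mitotic entry and spindle assembly, had 3.35, 3.21 and 4.12 CPM with D-galactose and 7.66, 6.49 and 7.01 CPM in controls (-0.98 ± 0.12). Aurkb, the kinase of the chromosomal passenger complex, had 3.31, 2.90 and 3.69 CPM with D-galactose and 6.76, 7.67 and 7.14 CPM in controls (-1.11 ± 0.12). Every D-galactose library was below every control for both kinases. The checkpoint gene Bub1b had 7.68, 4.60 and 6.10 CPM with D-galactose, against 12.0, 12.9 and 14.1 CPM in controls. Mad2l1, which encodes the checkpoint protein that binds Cdc20, had 12.4, 11.4 and 11.3 CPM, against 17.5, 15.6 and 14.96 CPM. Bub1b was more scattered among the D-galactose libraries than Mad2l1, with library 2 lowest. Pbk, Aurka, the kinase of spindle poles, and the checkpoint kinases Bub1 and Ttk gave log2 fold changes from -1.21 to -0.91.

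Genes of anaphase, of the kinetochore and of the chromosomes followed. Cdc20, the activator of the anaphase-promoting complex, had 6.66, 6.69 and 6.92 CPM with D-galactose, against 16.7, 13.4 and 14.7 CPM in controls. Ube2c, the ubiquitin-conjugating enzyme of that complex, had 9.69, 9.73 and 9.18 CPM, against 17.6, 16.3 and 15.7 CPM, and Pttg1, which encodes securin, 5.40, 3.88 and 5.02 CPM, against 9.75, 8.43 and 8.38 CPM. All 3 groups of D-galactose values were below the controls. Ndc80, whose product binds microtubules at the outer kinetochore, had 3.22, 3.12 and 2.37 CPM with D-galactose and 6.34, 5.65 and 5.89 CPM in controls. Its 3 partners in the same complex, Nuf2 (-1.20), Spc24 (-0.77) and Spc25 (-0.71), fell too. Cenpa, the centromeric histone H3 variant, had 6.43, 5.18 and 5.48 CPM with D-galactose and 11.2, 11.5 and 10.6 CPM in controls. Top2a, the topoisomerase that untangles sister chromatids, had 25.1, 22.6 and 24.8 CPM, against 54.9, 55.4 and 52.4 CPM, and Mki67, which coats mitotic chromosomes, had 21.1, 19.8 and 20.5 CPM, against 48.4, 55.3 and 49.3 CPM. In these genes each D-galactose value lay far under the lowest control.

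Motors, spindle proteins and cytokinesis genes fell with 1 exception. Kif11, the kinesin that keeps spindle poles apart, had 6.97, 5.31 and 6.22 CPM with D-galactose, against 14.8, 12.6 and 14.4 CPM in controls. Tpx2, which activates Aurora A on the spindle, had 14.7, 15.2 and 13.8 CPM, against 24.9, 27.2 and 26.1 CPM. Anln, which encodes the cytokinetic scaffold anillin, had 25.2, 24.2 and 23.6 CPM, against 41.3, 46.9 and 44.96 CPM. The 7 kinesin genes had a median log2 fold change of -0.91 and the 3 cytokinesis genes one of -0.87. Psrc1 was the exception, with 12.4, 12.1 and 10.7 CPM under D-galactose, against 6.09, 6.87 and 6.62 CPM in controls. It rose (0.84 ± 0.10, adjusted p = 1.23e-07), and its lowest D-galactose library was above its highest control. Psrc1 lies at chr3:108383839-108388231 on the plus strand of GRCm38 in the GENCODE vM21 annotation.

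**Figure D3:**
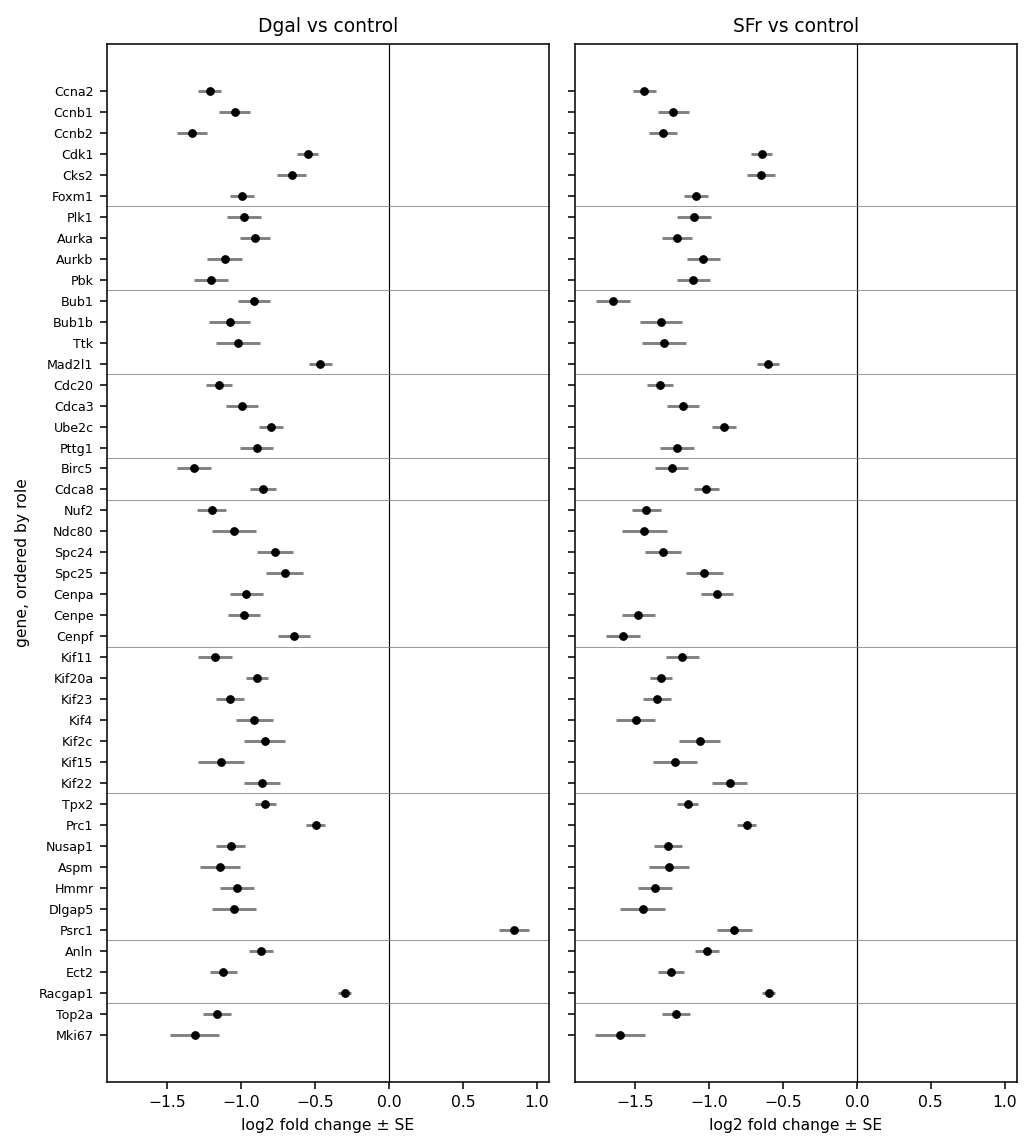
Log2 fold change (points) with its standard error (bars) for each of the 46 genes, for D-galactose against control (left) and SFr against control (right), ordered by role. D-galactose moved 45 genes to the left and Psrc1 to the right (0.84), while SFr moved all 46 to the left.

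Other genes of the same processes moved less evenly. Of 31 further kinetochore and centromere genes tested, 14 fell and 0 rose, with 18 past an unadjusted p of 0.05 in edgeR. The largest falls were in Ska1 (-1.71), Cenph (-1.22), Ska3 (-1.12) and Kntc1 (-1.04). Of 16 condensin, cohesion and passenger genes 13 fell, led by Espl1 (-1.11), which encodes separase, Cdca2 (-1.01), Ncapg (-0.94) and Cdca5 (-0.73). Of 32 other spindle, motor and cytokinesis genes 23 fell, led by Depdc1b (-1.43), Troap (-1.38), Depdc1a (-1.12) and Kif18b (-1.11), and 1 rose, Wee1 (0.22), the kinase that inhibits Cdk1. Of 16 subunits and partners of the anaphase-promoting complex 2 were lower, Ube2s (-0.24) and Cdc23 (-0.11). That is near the 13.1% of all tested genes called lower, and the median of the list was -0.038. Genes of DNA replication fell in 17 of 37 cases, led by Tk1 (-1.06), Mcm10 (-0.88), Chaf1b (-0.72) and Uhrf1 (-0.72), and 1 rose, Mcm6 (0.22).

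Most upstream regulators were not called. Of 18 MuvB, E2F and MYB genes, 5 fell, 1 rose and 12 were not called, with a list median of -0.067. Of all tested genes 13.1% were called lower and 11.9% higher. Mybl2 (-0.84 ± 0.22), which encodes B-Myb, E2f2 (-0.69 ± 0.049) and E2f7 (-0.63 ± 0.14) fell most, followed by Nfyc (-0.26), while Nfyb rose (0.23). Of 9 negative regulators of the cell cycle 2 fell, 1 rose and 6 were not called, with a list median of 0.013. The pocket protein genes Rbl1 (-0.23 ± 0.061) and Rbl2 (0.10 ± 0.032) went opposite ways, and the inhibitor gene Cdkn2d fell (-0.19 ± 0.066). The p21 gene Cdkn1a was at 0.02 ± 0.038 and p53's gene Trp53 at -0.0021 ± 0.048, neither of which passed the test. Rb1, Cdkn1b, Cdkn1c and Cdkn2c did not pass it either.

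Markers of other cells and of RNA composition were set beside these values. The share of mitochondrially encoded counts was 1.49 ± 0.182% in D-galactose and 0.908 ± 0.211% in controls, and 7 of 13 such genes rose, led by mt-Nd1 (0.94), mt-Nd5 (0.71), mt-Co1 (0.69) and mt-Nd2 (0.68). Without TMM scaling the 46 genes summed to 391.8 CPM of the library total in D-galactose and 700.8 CPM in controls, and with the mitochondrial counts taken out of the totals to 397.7 CPM in D-galactose and 707.2 CPM in controls. Markers of undifferentiated myoblasts or reserve cells summed to 4242 CPM in D-galactose (4196 to 4319 CPM) and 4257 CPM in controls (4207 to 4333 CPM). Of these 18 markers 4 fell, among them Heyl (-0.25) and Spry1 (-0.21), and 2 rose, Fgfr4 (0.25) and Pax7 (0.25). Myotube markers summed to 34560 CPM in D-galactose (33980 to 34970 CPM) and 36490 CPM in controls (35480 to 37960 CPM), with 3 of 19 lower, led by the embryonic myosin gene Myh3 (-0.63), and 2 higher. Bone or cartilage markers summed to 85.2 CPM in D-galactose (79.7 to 88.6 CPM) and 92.03 CPM in controls (89.8 to 94.1 CPM), with Dmp1 (-1.04) and Sox9 (-0.25) lower, and fat cell markers to 19.1 CPM in D-galactose (18.1 to 20.3 CPM) and 19.7 CPM in controls (18.6 to 21.1 CPM), with neither of the 2 tested called. Of the 7 fat cell markers 5, among them Adipoq and Plin1, stayed under 1 CPM in every library, as did 6 of the 9 bone or cartilage markers, and none was at 0 throughout. The part of these in the fall of the mitotic genes was not tested.

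D-galactose was also compared with its absence after each preparation, and together with the vehicle comparison this gave 5 comparisons that share no library. After RGW, 44 of 46 genes fell and 1 rose (15.2% of tested genes called, 8.93% lower and 6.3% higher), with a median log2 fold change of -0.70 against 0.0010 for all genes. After SFr, 38 fell and 1 rose (19% called, 10.5% lower and 8.46% higher), with medians of -0.76 and -0.0036. After NSFr, 45 fell and 1 rose (12.7% called, 6.98% lower and 5.76% higher), with medians of -0.67 and -0.0033. After Rb2, 45 fell and 1 rose (21% called, 11.2% lower and 9.81% higher), with medians of -0.73 and 0.0025. In all 5 comparisons together 37 of 46 genes fell each time, against 2.91% of all tested genes, and 1 rose each time, against 2.12%. That 1 gene was Psrc1.

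With D-galactose after RGW the largest falls were in Aurkb (-1.19 ± 0.12), Pbk (-1.02), Bub1 (-0.96), Kif15 (-0.94), a spindle kinesin, and Ndc80 (-0.94), and Cenpf, a kinetochore protein gene, was the 1 not called (-0.26 ± 0.11, adjusted p = 0.0924). After SFr they were in Kif2c (-1.30 ± 0.19), which encodes a microtubule-depolymerizing kinesin, Pbk (-1.20), Ccnb2 (-1.18), Aurkb (-1.11) and Hmmr (-1.08). The 7 genes not called there were Cdk1, Spc25, Kif4, Prc1, Racgap1, Ube2c and Cks2, between -0.37 and -0.06. After NSFr the largest falls were in Kif15 (-1.02 ± 0.14), the chromokinesin gene Kif4 (-0.94), Aurkb (-0.93), Mki67 (-0.81) and Bub1b (-0.80). After Rb2 they were in Pbk (-1.17 ± 0.10), Ccnb2 (-1.15), Birc5 (-0.95), Ttk (-0.94) and Kif15 (-0.94).

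Psrc1 kept its direction. Its level was 6.56, 6.80 and 7.81 CPM in RGW plus D-galactose, against 4.03, 5.43 and 4.35 CPM in RGW, a log2 fold change of 0.60 ± 0.11. In SFr plus D-galactose it was 5.87, 6.25 and 5.08 CPM, against 3.79, 3.51 and 3.68 CPM in SFr (0.64 ± 0.12). The values do not overlap in either pair. In NSFr plus D-galactose it was 9.68, 7.70 and 8.48 CPM, against 5.58, 5.31 and 6.81 CPM in NSFr (0.55 ± 0.11), and in Rb2 plus D-galactose 10.1, 10.1 and 9.56 CPM, against 7.25, 6.93 and 6.24 CPM in Rb2 (0.54 ± 0.10). In these pairs too all 3 libraries with D-galactose were above all 3 without. The adjusted p-values of Psrc1 in edgeR over these 4 comparisons ran from 0.000190 to 0.000443.

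**Figure D4:**
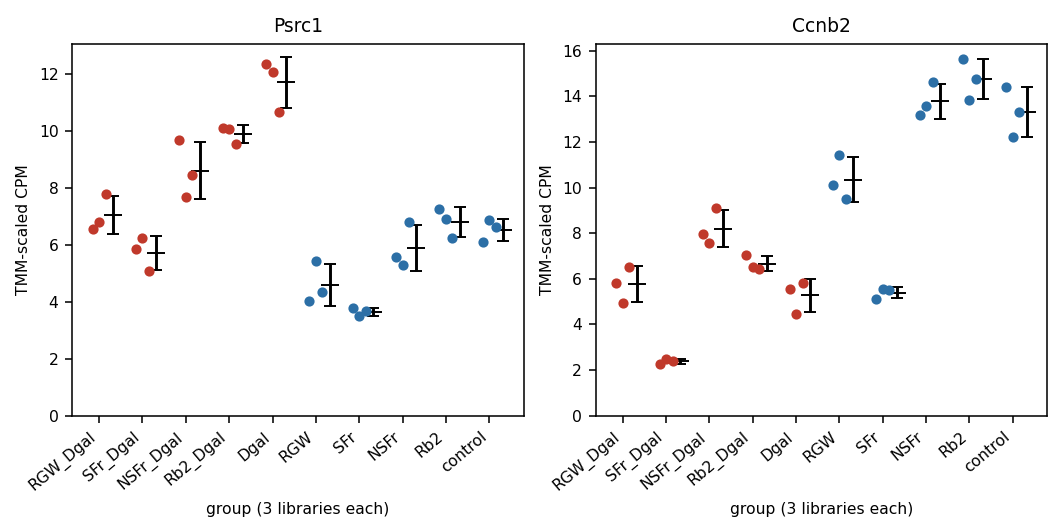
Scaled CPM of Psrc1 (left) and Ccnb2 (right) in each library (points; red with D-galactose, blue without), with group means and SD (bars, n = 3). Psrc1 is higher and Ccnb2 lower in each red group than in the blue group of the same preparation, and Psrc1 is highest in D-galactose alone, at 11.7 CPM on average.

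The difference between the D-galactose effect after a preparation and that on vehicle was then tested directly. All 4 of these tests share the D-galactose and control libraries. Its median over the 46 genes was 0.29 for RGW, 0.28 for SFr, 0.32 for NSFr and 0.22 for Rb2 on the log2 scale, against -0.00082, -0.0010, 0.0035 and 0.0045 for all tested genes. A positive difference means a smaller fall after the preparation. After SFr 1 gene passed the test (0.583% of tested genes called, 0.213% higher), and after the others none did: RGW gave 0 (0% called), NSFr 0 (0.041% called) and Rb2 0 (0% called). At an unadjusted p of 0.05, 19, 19, 24 and 18 members passed in edgeR for SFr, RGW, NSFr and Rb2. The share of all tested genes past that threshold is not given here, so these counts have no background beside them. The SFr gene was Ube2c (0.57 ± 0.12, adjusted p = 0.0126), which had 7.43, 7.47 and 7.79 CPM in SFr plus D-galactose and 8.83, 8.90 and 8.93 CPM in SFr, against 9.69, 9.73 and 9.18 CPM in D-galactose and 17.6, 16.3 and 15.7 CPM in controls. Its fall was small from the already low level in SFr and larger from the control level. Without D-galactose library 3 the SFr count was 0, and without D-galactose library 1 or SFr plus D-galactose library 1 it was 2. DESeq2 gave 2 genes for RGW, 1 for SFr, 1 for NSFr and 0 for Rb2.

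SFr against the control asks what the saponin fraction did without D-galactose. All 46 genes fell, against 43.1% of tested genes called in either direction and 21.8% lower, with a median log2 fold change of -1.23 against 0.00050 for all genes. All 46 were lower in each SFr library than in each control, while 24.7% of all genes were. The largest falls were in the checkpoint kinase gene Bub1 (-1.65 ± 0.12, adjusted p = 5.59e-14), Mki67 (-1.60 ± 0.17), Cenpf (-1.58 ± 0.12), Kif4 (-1.50 ± 0.13) and Cenpe (-1.48 ± 0.11), a kinesin of the kinetochore. The smallest were in Racgap1 (-0.60) and Mad2l1 (-0.60), with Cdk1 (-0.64) and Cks2 (-0.65) next. The controls are those of the D-galactose comparison, so a likeness to the order there is not an independent repeat.

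Bub1 had 2.05, 2.68 and 2.99 CPM in SFr, against 8.46, 7.42 and 8.25 CPM in controls. Ccna2 had 9.51, 8.90 and 9.45 CPM in SFr, against the control values given above, a log2 fold change of -1.44 ± 0.077. Both were low in all 3 SFr libraries. Ccnb1 (6.07, 5.51 and 5.60 CPM), Cdk1 (14.5, 12.8 and 13.5 CPM) and Foxm1 (7.98, 6.46 and 8.11 CPM) were likewise below every control, and Cdk1 had the smallest fold change of the 3. For the kinases Plk1 and Aurkb the SFr libraries held 2.83, 3.66 and 3.44 CPM and 3.10, 3.74 and 3.64 CPM, and for the checkpoint genes Bub1b and Mad2l1 5.22, 5.20 and 5.09 CPM and 11.2, 10.7 and 9.93 CPM. Of the checkpoint genes, Mad2l1 had the fold change nearest 0. Cdc20 had 5.01, 6.26 and 6.60 CPM and Pttg1 3.99, 4.10 and 3.40 CPM in SFr, and Ndc80 and Cenpa had 2.39, 1.73 and 2.44 CPM and 5.12, 6.03 and 6.18 CPM. The kinetochore genes had a median log2 fold change of -1.42 and the mitotic kinases one of -1.10. Kif11 stood at 5.90, 5.99 and 6.53 CPM, Tpx2 at 11.4, 11.9 and 12.1 CPM, Anln at 19.4, 22.1 and 24.3 CPM and Top2a at 22.5, 21.7 and 25.2 CPM. Mki67, at 13.5, 15.8 and 21.0 CPM in SFr, was more scattered than these, library 3 being highest. Psrc1 fell here like the others, with 3.79, 3.51 and 3.68 CPM in SFr (-0.83 ± 0.12, adjusted p = 7.19e-07).

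With D-galactose present, SFr lowered 45 of the 46 genes again. SFr plus D-galactose against D-galactose gave 45 lower genes and 0 higher (41.3% of tested genes called, 21% lower), with a median log2 fold change of -0.95 against -0.0055 for all genes. Cks2 was the 1 gene not called (-0.22 ± 0.11, adjusted p = 0.0980), with 7.601, 7.72 and 8.93 CPM in SFr plus D-galactose and 9.69, 7.94 and 10.6 CPM in D-galactose, where the groups overlap. Kif2c had 1.28, 1.22 and 1.27 CPM in SFr plus D-galactose, against 4.15, 2.90 and 3.77 CPM in D-galactose, the largest fall (-1.52 ± 0.19, adjusted p = 4.74e-08). It was followed by Bub1 (-1.51), Hmmr (-1.42), which encodes a spindle protein, Cenpf (-1.35) and Mki67 (-1.32). Mki67 had 8.67, 7.23 and 8.57 CPM in SFr plus D-galactose and Ccna2 4.60, 5.48 and 4.82 CPM, each far below every D-galactose library. Psrc1 also fell (-1.03 ± 0.10), to 5.87, 6.25 and 5.08 CPM, a range that overlaps that of the controls.

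Markers of other cells moved in this comparison too. Myotube markers summed to 30210 CPM in SFr plus D-galactose (29660 to 31040 CPM) and 34560 CPM in D-galactose (33980 to 34970 CPM), with 13 of 19 lower and 1 higher. Markers of undifferentiated myoblasts or reserve cells summed to 3716 CPM in SFr plus D-galactose (3671 to 3744 CPM) and 4242 CPM in D-galactose (4196 to 4319 CPM), with 11 of 18 lower and 5 higher. Fat cell markers summed to 33.02 CPM in SFr plus D-galactose and 19.1 CPM in D-galactose, with both tested markers higher. Bone or cartilage markers summed to 97.6 CPM in SFr plus D-galactose and 85.2 CPM in D-galactose, though of 4 tested 1 was higher and 2 were lower. Their part in the fall of the mitotic genes was not tested.

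Around the 46 genes, SFr alone lowered 18 of 31 other kinetochore genes, led by Ska1 (-1.42), Cenpp (-1.20), Kntc1 (-1.18) and Cenpm (-1.14), and raised 1, Zwint (0.50). Of 32 other spindle, motor and cytokinesis genes 29 fell, among them Depdc1b (-1.49), Cdc25c (-1.44), Kif18b (-1.36) and Depdc1a (-1.36), and Wee1 (0.86) and Cdc25b (0.27) rose. Of 16 condensin, cohesion and passenger genes 13 fell, with Espl1 (-1.20), Cdca2 (-1.16), Ncapg (-1.14) and Ncaph (-0.82) first. Of 16 anaphase-promoting complex subunits and partners 11 were not called, 3 were lower and 2 higher. Of all tested genes 43.1% were called, 21.8% lower and 21.3% higher. The lower were Anapc10 (-0.23), Cdc16 (-0.21) and Cdc23 (-0.14), and the higher Anapc2 (0.20) and Anapc11 (0.17). The list median was -0.049. DNA replication genes fell in 26 of 37 cases, led by Tk1 (-0.91), Cdc6 (-0.85), Uhrf1 (-0.82) and Ccne2 (-0.80), and Pcna rose (0.31). Of 18 MuvB, E2F and MYB genes 9 fell, with E2f7 (-1.27), E2f2 (-1.07), Mybl2 (-0.54) and Lin9 (-0.39) first, and E2f6 rose (0.26). Of 9 negative regulators 5 fell, the p57 gene Cdkn1c (-1.13 ± 0.11), Cdkn1a (-0.51 ± 0.038), Cdkn2c (-0.50), Rbl1 (-0.45) and Rb1 (-0.26), and Cdkn1b (0.13) and Trp53 (0.13) rose.

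Differentiation markers moved with SFr as well. Myotube markers summed to 27230 CPM in SFr (26270 to 27790 CPM) and 36490 CPM in controls (35480 to 37960 CPM), and 17 of 19 fell, led by Myh8 (-1.39), Ttn (-1.32), Neb (-1.26) and Mef2c (-1.06), while Des rose (0.27). Markers of undifferentiated myoblasts or reserve cells summed to 3823 CPM in SFr (3808 to 3840 CPM) and 4257 CPM in controls (4207 to 4333 CPM), with 10 of 18 lower and 5 higher. Hey1 (-1.63), Heyl (-0.74) and Fgfr4 (-0.57) fell and Id3 (0.59) rose. Both fat cell markers tested rose, Cebpa (0.78) and Pparg (0.34), and the fat cell markers summed to 32.7 CPM in SFr (31.9 to 33.2 CPM) and 19.7 CPM in controls (18.6 to 21.1 CPM). Bone or cartilage markers summed to 108.3 CPM in SFr (104 to 113.4 CPM) and 92.03 CPM in controls (89.8 to 94.1 CPM), with Sox9 (0.45) higher and Runx2 (-0.24) lower. Mitochondrially encoded counts made up 1.22 ± 0.120% in SFr and 0.908 ± 0.211% in controls, and 4 of 13 such genes rose, mt-Nd4l (1.32), mt-Nd3 (0.61), mt-Co1 (0.48) and mt-Nd4 (0.46). Their part in the fall of the mitotic genes was not tested.

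The water extract RGW alone lowered 12 of the 46 genes, cyclin, anaphase and spindle genes among them. RGW against control gave 12 lower genes and 0 higher (3.21% of tested genes called, 1.17% lower and 2.04% higher), with a median log2 fold change of -0.27 against -0.0037 for all genes and all 46 estimates below 0. The 12 were Psrc1 (-0.49 ± 0.12, adjusted p = 0.0128), Birc5 (-0.44), Ccna2 (-0.39), Cdca3 (-0.39), Nusap1 (-0.38), Cdc20 (-0.37), Ccnb2 (-0.37), Top2a (-0.33), Ube2c (-0.31), Kif23 (-0.31), Cdk1 (-0.26) and Tpx2 (-0.25). In 35 of 46 genes all RGW libraries were below all controls, against 8.81% of all genes. Ccna2 had 19.7, 20.7 and 17.1 CPM in RGW, all below the lowest control of 24.5 CPM, and Cdc20 had 11.5, 11.5 and 11.7 CPM, all below the lowest control of 13.4 CPM. Mki67, at 44.4, 41.9 and 27.5 CPM in RGW, did not pass the test and was lowest in library 3. The count was 3 without RGW library 3, 4 without control library 1, 7 without control library 3 and 1 when only these groups were fitted. The mitochondrial share was 1.29 ± 0.037% in RGW and 0.908 ± 0.211% in controls, and 2 of 13 mitochondrially encoded genes rose, with a list median of 0.50 and 7 past an unadjusted p of 0.05 in edgeR. Its part in the falls was not tested.

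With D-galactose present, 1 of the 46 genes was called with RGW, Psrc1, a count near the share of all tested genes called lower. RGW plus D-galactose against D-galactose gave 0 higher genes and 1 lower, Psrc1 (-0.73 ± 0.099, adjusted p = 1.28e-05), against 5.06% of tested genes called, 2.54% lower and 2.52% higher. At an unadjusted p of 0.05 in edgeR, 4 members passed. The median log2 fold change was 0.01, against -0.00031 for all genes, with 25 estimates above and 21 below 0. Psrc1 had 6.56, 6.80 and 7.81 CPM in RGW plus D-galactose, against 12.4, 12.1 and 10.7 CPM in D-galactose, without overlap. It was also lower with RGW alone (-0.49), and its difference of D-galactose effects after RGW was not called. Ccna2 had 10.4, 11.3 and 11.1 CPM in RGW plus D-galactose and Top2a 29.8, 25.8 and 24.1 CPM, of which Ccna2 lay within the range of D-galactose alone and Top2a had 2 libraries above it. The 45 genes that were not called had log2 fold changes from -0.28 to 0.22 and standard errors up to 0.18.

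In the presence of D-galactose, the non-saponin fraction raised 30 of the 46 genes, lowered 1 and left 15 without a call. NSFr plus D-galactose against D-galactose gave 30 higher genes and 1 lower (6.33% of tested genes called, 3.5% higher and 2.82% lower), with a median log2 fold change of 0.45 against -0.0035 for all genes. The largest rises were in Ccna2 (0.69 ± 0.081, adjusted p = 1.33e-06), Dlgap5 (0.68 ± 0.15), which encodes a microtubule-bundling spindle protein, Plk1 (0.68 ± 0.12), Nuf2 (0.67 ± 0.10) and Ccnb2 (0.63 ± 0.11). The lower gene was Psrc1 (-0.44 ± 0.096, adjusted p = 0.00440). In 38 of 46 genes all 3 libraries of NSFr plus D-galactose were above all 3 of D-galactose, and in 1 gene below, against 13.5% and 13.7% of all genes.

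Ccna2 had 18.2, 16.1 and 18.3 CPM in NSFr plus D-galactose, against 10.2, 10.3 and 12.0 CPM in D-galactose. Plk1 had 6.32, 5.38 and 5.51 CPM, against 3.35, 3.21 and 4.12 CPM, and Nuf2 7.73, 5.66 and 6.74 CPM, against 4.15, 3.97 and 4.43 CPM. None of the 3 overlapped. Foxm1 had 12.5, 10.9 and 11.9 CPM in NSFr plus D-galactose and 8.22, 8.21 and 7.82 CPM in D-galactose (0.54 ± 0.086), and Cdc20 had 10.7, 9.20 and 10.3 CPM and 6.66, 6.69 and 6.92 CPM (0.57 ± 0.093). These levels stayed below the controls of both genes. Among the 15 genes not called were Cdk1 (0.14 ± 0.073), Mad2l1 (0.09 ± 0.079), Aurkb (0.40 ± 0.13, adjusted p = 0.0517), Bub1, Ndc80, Spc24, Spc25, Cenpf, Kif4, Kif15, Aspm, Racgap1, Mki67, Cks2 and Pttg1. By role, 3 of 4 kinases rose, 2 of 4 checkpoint genes, 3 of 7 kinetochore genes and 5 of 7 kinesins. The count of called genes was 18 without NSFr plus D-galactose library 1 and 19 without D-galactose library 2 or library 3.

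Among the other lists, 4 of 31 other kinetochore genes, 8 of 32 other spindle, motor and cytokinesis genes and 5 of 16 condensin, cohesion and passenger genes rose with NSFr plus D-galactose, and none of these lists held a gene that fell. Of the 9 negative regulators 1 was lower, Cdkn2c (-0.24 ± 0.056, adjusted p = 0.00811). Myoblast or reserve cell markers summed to 4184 CPM in NSFr plus D-galactose (4142 to 4223 CPM) and 4242 CPM in D-galactose (4196 to 4319 CPM). Myotube markers summed to 34960 CPM in NSFr plus D-galactose (34500 to 35810 CPM) and 34560 CPM in D-galactose (33980 to 34970 CPM), so both sums overlapped between the groups. Single markers were called all the same. Of 18 myoblast or reserve cell markers 3 were higher and 2 lower, and of 19 myotube markers 2 were higher and 2 lower.

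Ginsenoside Rb2 raised 19 of the 46 genes in the presence of D-galactose. Its dose is in another unit than that of NSFr, and no test was made between them. Both were compared with the same 3 D-galactose libraries, so their rises are not independent of each other. Rb2 plus D-galactose against D-galactose gave 19 higher genes and 0 lower (2.26% of tested genes called, 1.16% higher and 1.1% lower), with a median log2 fold change of 0.42 against 0.0022 for all genes. The largest rises were in Nuf2 (0.78 ± 0.10, adjusted p = 1.07e-05), Top2a (0.63 ± 0.10), Kif23 (0.62 ± 0.10), a kinesin of the central spindle, Aurkb (0.58 ± 0.13) and Dlgap5 (0.57 ± 0.16). Nuf2 had 7.52, 7.41 and 6.81 CPM in Rb2 plus D-galactose, against 4.15, 3.97 and 4.43 CPM in D-galactose. Top2a had 37.4, 36.2 and 38.5 CPM, against 25.1, 22.6 and 24.8 CPM, and Aurkb 5.44, 4.94 and 4.57 CPM, against 3.31, 2.90 and 3.69 CPM. All 3 genes were higher in each Rb2 plus D-galactose library, and this held for 31 of 46 genes, against 9.86% of all genes. The other called genes were Ccna2, Kif11, Plk1, Kif4, Cenpe, Foxm1, Cdc20, Cdca8, Ect2, Spc24, Nusap1, Anln, Kif20a and Tpx2, from 0.56 to 0.31. None of the 4 checkpoint genes was called. Psrc1, at 10.1, 10.1 and 9.56 CPM in Rb2 plus D-galactose, was not called (-0.24 ± 0.095, adjusted p = 0.257). The count was 10 without D-galactose library 2. Myotube markers summed to 34900 CPM in Rb2 plus D-galactose (34550 to 35400 CPM) and 34560 CPM in D-galactose (33980 to 34970 CPM), with 3 of 19 higher and 0 lower, and the mitochondrial share was 1.24 ± 0.0697% in Rb2 plus D-galactose and 1.49 ± 0.182% in D-galactose. Their part in the rise was not tested.

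**Figure D5:**
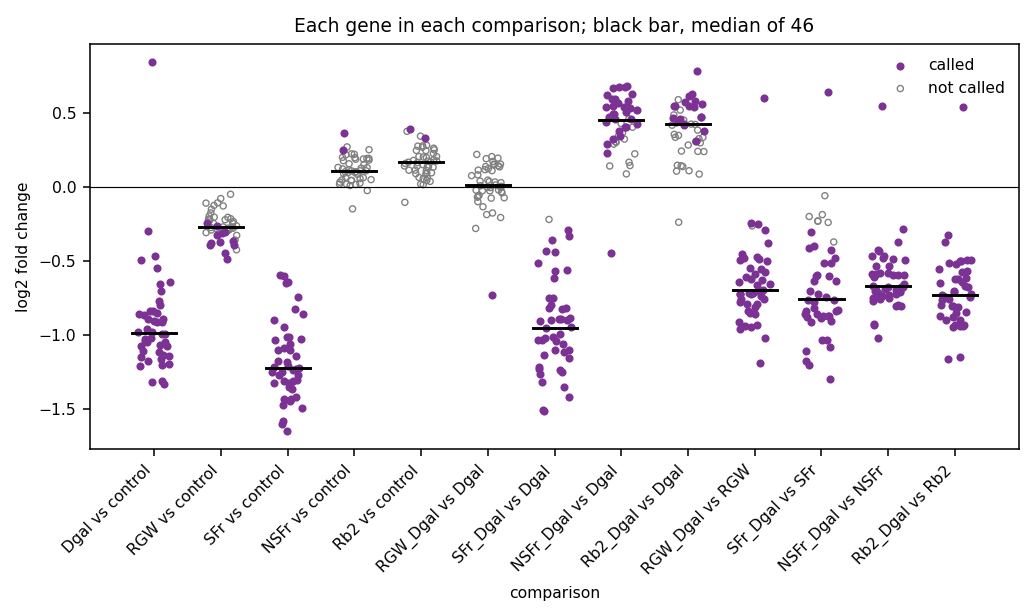
Log2 fold change of each of the 46 genes in 13 comparisons (filled purple, called; open grey, not called), with the median as a black bar. NSFr plus D-galactose and Rb2 plus D-galactose lie above 0 (medians 0.45 and 0.42), RGW plus D-galactose lies around 0, SFr plus D-galactose lies below 0 (-0.95), and the lone high points in the D-galactose columns are Psrc1. Comparisons against D-galactose alone share its libraries, and those against control share the control libraries.

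Without D-galactose, NSFr and Rb2 each had 2 of these genes called. The count was near the share of all tested genes called higher for NSFr (4.56%) and above it for Rb2 (0.575%). NSFr against control gave 2 higher genes and 0 lower, Plk1 (0.37 ± 0.097, adjusted p = 0.0146) and Foxm1 (0.25 ± 0.071, adjusted p = 0.0248), against 8.08% of tested genes called and 4.56% higher, and the median log2 fold change was 0.11 against -0.0046 for all genes. Plk1 had 10.3, 8.67 and 8.50 CPM in NSFr, against 7.66, 6.49 and 7.01 CPM in controls, and Foxm1 19.3, 18.3 and 19.8 CPM, against 15.6, 16.9 and 15.8 CPM, both without overlap. In 13 of 46 genes all NSFr libraries were above all controls, against 13.3% of all genes. At an unadjusted p of 0.05 in edgeR 13 members passed, a count with no share of all genes beside it. Rb2 against control also gave 2 higher genes and 0 lower, Pbk (0.39 ± 0.093, adjusted p = 0.0162) and Nuf2 (0.33 ± 0.080, adjusted p = 0.0212), against 1.53% called, 0.575% higher and 0.96% lower, with a median of 0.17 against -0.0034 for all genes. Pbk had 11.3, 10.4 and 11.1 CPM in Rb2, against 8.92, 7.97 and 7.996 CPM in controls, and Nuf2 11.6, 11.8 and 12.9 CPM, against 9.86, 9.44 and 9.59 CPM, again without overlap. In 22 of 46 genes all Rb2 libraries were above all controls, against 8.37% of all genes, and 45 estimates were above 0. At an unadjusted p of 0.05 in edgeR 21 members passed, again with no share of all genes beside the count. The NSFr count was 0 without NSFr library 1 and 1 without NSFr library 3 or any 1 control library. The Rb2 count was 0 without control library 2 or 3, 3 without control library 1 and 1 without any 1 Rb2 library.

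The saponin and non-saponin fractions, given at the same dose and time, were also compared directly. SFr against NSFr gave 46 lower genes of 46 (40.4% of tested genes called, 19.6% lower), with a median log2 fold change of -1.34 against 0.0041 for all genes. The largest differences were in Bub1 (-1.77 ± 0.11, adjusted p = 5.31e-15), Cenpf (-1.71), Kif4 (-1.69), Dlgap5 (-1.67) and Nuf2 (-1.65). Nuf2 had 3.72, 3.15 and 3.85 CPM in SFr, against 11.4, 11.4 and 10.9 CPM in NSFr. With D-galactose, SFr plus D-galactose against NSFr plus D-galactose again gave 46 lower genes of 46 (41% called, 20.3% lower), with a median of -1.39 against 0.00030 for all genes. Kif2c differed most (-2.12 ± 0.17, adjusted p = 2.05e-12), with 1.28, 1.22 and 1.27 CPM in SFr plus D-galactose, against 5.86, 4.70 and 5.93 CPM in NSFr plus D-galactose. Next came Dlgap5 (-1.91), Bub1 (-1.86), Hmmr (-1.85) and Mki67 (-1.84). No library overlapped in any of the 46 genes in either comparison, while 24.3% and 24.9% of all genes lay wholly lower. Beside this, 18 of 19 myotube markers were lower in SFr than in NSFr (list median -0.63) and 14 of 19 in SFr plus D-galactose than in NSFr plus D-galactose (-0.56), while 1 was higher in each comparison. Both fat cell markers tested were higher in each comparison, with medians of 0.54 without and 0.62 with D-galactose. The part of these in the differences was not tested.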

How the data were processed

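Poly(A) RNA of 30 libraries was sequenced as paired ends from a directional kit, per the labels and the series' design text. The authors deposited RSEM expected counts per gene, not normalized, and the submitters' processing notes name RSEM 1.3.3, STAR 2.7.9a, Trim Galore 0.6.10 and FastQC 0.11.9, and as builds GRCm38 with mm10. Which annotation and strand option the counting used is not given in the sources used here. Of all values 19.4% were not whole; they were rounded. The 30 replicate pairs differed by more than sampling noise (chi-square per degree of freedom 2.48 to 13.7), and a count of 3 equalled 0.0993 to 0.135 CPM.

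Tests used edgeR 4.0.16 with limma 3.58.1 in R 4.3.3 (glmQLFit with robust fitting, TMM scaling, filterByExpr, a model of 10 group means; biological coefficient of variation 4.25%), checked on simulated data. Standard errors were taken as the size of the log2 fold change over the square root of F. The 46 genes and the other gene lists were chosen with earlier results of these data known. Members named with values were 19 picked by role, the 5 called genes of largest change in each comparison, genes going against the rest, and all called or all uncalled genes where these were 5 or fewer; other members named were picked after their values were seen. Further genes were the 4 of largest change per list. Alternatives were RLE scaling, no filter, DESeq2 1.42.0, a replicate block, only the groups compared, and leaving out each library. Coordinates came from GENCODE vM21 and promoters from RefSeq.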

Additional observations from a re-analysis of the deposited data

Results flagged for a closer look

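The difference between the D-galactose effect after SFr and that on vehicle passed the test for 1 of the 46 genes, Ube2c, which encodes the ubiquitin-conjugating enzyme of the anaphase-promoting complex. The log2 difference was 0.57 ± 0.12 (edgeR adjusted p = 0.0126): Ube2c had 7.43, 7.47 and 7.79 CPM in SFr plus D-galactose and 8.83, 8.90 and 8.93 CPM in SFr, against 9.69, 9.73 and 9.18 CPM in D-galactose and 17.6, 16.3 and 15.7 CPM in controls. Of the other members, 42 also had a positive difference without passing the test. The cultures given SFr alone are labelled 12 h, so a difference in culture time cannot be told apart from it. The deposited values of Ube2c were not all whole, as RSEM gives where it divides reads between genes, so its level is uncertain to that extent.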

How the results depend on the processing

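Of 473 calls of a member in a comparison, 0 reversed among 5209 values under the alternatives and 58 lost their call under at least 1 alternative. The alternatives refitted the same libraries, or part of them, for genes already called, so a reversal was unlikely from the start. The counts of called members stayed at 46 of 46 without any 1 library for D-galactose against control, Rb2 plus D-galactose against Rb2, SFr against control and both SFr against NSFr comparisons. Leaving out single libraries gave 45 to 46 for SFr plus D-galactose against D-galactose and for NSFr plus D-galactose against NSFr, 42 to 46 for RGW plus D-galactose against RGW, 35 to 38 for SFr plus D-galactose against SFr, 18 to 32 for NSFr plus D-galactose against D-galactose, 10 to 18 for Rb2 plus D-galactose against D-galactose, 3 to 11 for RGW against control, 0 to 2 for NSFr against control, 0 to 3 for Rb2 against control and 1 to 1 for RGW plus D-galactose against D-galactose. For the difference of D-galactose effects it gave 0 to 2 after SFr, 0 to 1 after NSFr, and 0 after RGW and Rb2. With only the groups compared, where fewer libraries set the spread, 1 gene was called for each of RGW, NSFr and Rb2 against control. DESeq2 gave 2 genes for the RGW difference and 1 for the NSFr difference, as did no filter on low counts for NSFr (1); the cause was not tested. Fitting only the groups compared lost 19 single-gene calls, DESeq2 and no filter 3 each and RLE scaling 0. Replicate numbers did not pair libraries: over 135 same-number pairs the mean correlation of deviations was -0.00229, 8 exceeded 0.1, and 10 of 30 libraries correlated best with their own number. A replicate block lost 0 calls and gave 32 called members for NSFr plus D-galactose against D-galactose, 20 for Rb2 plus D-galactose against D-galactose and 41 for SFr plus D-galactose against SFr. Depth limits the values of Kif15, Ndc80, Aurkb and Kif2c most, which had 24 to 30 counts in SFr plus D-galactose library 2.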
